A study of Mus musculus with 4 samples.

Results

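*Calcr*, *Tfpi2*, *Pon2*, *Pon3*, *Pdk4* and *Dync1i1* are 6 genes of proximal chromosome 6 that flank the imprinted pair *Peg10* and *Sgce* without belonging to its core. They were chosen by name from a table of 55602 genes counted for total RNA, and all 6 were also present in a table of 54750 genes counted separately for the 2 parental alleles. RNA was sequenced from cells labelled as neural precursor cells, at day 12 of an in vitro corticogenesis. In it mouse embryonic stem cells (ESCs) are turned into cells of the early cortex. The libraries were 2 biological duplicates of wild-type JB1 cells and 2 of a *Zfp57*-/- line that was derived from JB1. The study calls the *Zfp57*-/- cells at day 12 neural precursor-like and describes their neural differentiation as likely partial. JB1 is a hybrid line with a JF1 mother and a C57BL/6 (B6) father, so that a polymorphic fragment can be assigned to the maternal JF1 or the paternal B6 allele. All 4 cultures received 1 µM cyclopamine, an inhibitor of Hedgehog signalling, from day 2 to day 10. The *Zfp57*-/- cells are 1 line, and the genotype and the history of that line cannot be told apart.

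An imprinted domain is a group of genes whose expression depends on the parent from which the chromosome came, under the control of a region that is methylated on 1 parental allele only. ZFP57 is a zinc finger protein that binds a methylated hexamer in such regions and keeps the methylation in place. In this domain the controlling region lies at the shared promoter region of *Peg10* and *Sgce*, is methylated on the maternal allele, and leaves the paternal copies of both genes expressed. Several of the genes around it have been described with parental bias in some tissues, *Calcr* in the brain among them, while others are regarded as bystanders.

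The members encode proteins with unrelated roles. *Calcr* encodes the calcitonin receptor, a G protein-coupled receptor at the cell surface. *Tfpi2* encodes a secreted Kunitz-type inhibitor of serine proteases. *Pon2* and *Pon3* encode paraoxonases, lactone-hydrolysing enzymes with antioxidant activity. *Pdk4* encodes a mitochondrial kinase that phosphorylates and switches off the pyruvate dehydrogenase complex, and *Dync1i1* encodes an intermediate chain of the cytoplasmic dynein motor. In GRCm38 coordinates with the annotation of the counted table, *Calcr* (ENSMUSG00000023964.15) lay on chromosome 6 from 3685680 to 3764714 and *Tfpi2* (ENSMUSG00000029664.10) from 3962595 to 3988919, both on the minus strand and proximal to *Peg10*. Distal to it, *Pon3* (ENSMUSG00000029759.9) spanned 5220852 to 5256286, *Pon2* (ENSMUSG00000032667.17) 5264147 to 5298455 and *Pdk4* (ENSMUSG00000019577.6) 5483351 to 5496309, all on the minus strand. *Dync1i1* (ENSMUSG00000029757.16), on the plus strand, spanned 5725639 to 6028039. The start of *Calcr* was 983 kb and that of *Tfpi2* 758 kb proximal to the start of *Peg10*. The starts of *Pon3*, *Pon2*, *Pdk4* and *Dync1i1* were 509, 551, 749 and 978 kb distal to it.

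The promoters of 4 members are shown, because these genes carry the results on level and allele described below or hold a form of the ZFP57 recognition hexamer, TGCCGC or GGCCGC. Each runs 5′ to 3′ on the strand of its gene, from 250 bases before to 50 bases after a RefSeq start (GRCm38.p6), and capitals mark either form or its reverse complement, GCGGCA or GCGGCC. The regions, all on the minus strand, are chr6:3763574-3763873 for the first of 2 *Calcr* windows, chr6:5256184-5256483 for *Pon3*, chr6:5298291-5298590 for *Pon2* and chr6:5496229-5496528 for *Pdk4*.
Calcr: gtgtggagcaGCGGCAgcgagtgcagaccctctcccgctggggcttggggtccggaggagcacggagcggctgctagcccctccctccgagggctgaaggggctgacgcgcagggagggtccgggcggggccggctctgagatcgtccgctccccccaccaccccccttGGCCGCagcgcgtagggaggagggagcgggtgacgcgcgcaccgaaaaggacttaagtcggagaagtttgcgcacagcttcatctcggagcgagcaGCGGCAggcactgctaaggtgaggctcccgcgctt
Pon3: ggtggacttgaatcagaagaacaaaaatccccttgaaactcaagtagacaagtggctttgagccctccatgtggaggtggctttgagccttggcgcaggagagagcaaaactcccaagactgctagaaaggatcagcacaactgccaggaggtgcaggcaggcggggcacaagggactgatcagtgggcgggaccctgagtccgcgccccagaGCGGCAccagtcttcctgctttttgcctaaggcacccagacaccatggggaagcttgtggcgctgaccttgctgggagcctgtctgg
Pon2: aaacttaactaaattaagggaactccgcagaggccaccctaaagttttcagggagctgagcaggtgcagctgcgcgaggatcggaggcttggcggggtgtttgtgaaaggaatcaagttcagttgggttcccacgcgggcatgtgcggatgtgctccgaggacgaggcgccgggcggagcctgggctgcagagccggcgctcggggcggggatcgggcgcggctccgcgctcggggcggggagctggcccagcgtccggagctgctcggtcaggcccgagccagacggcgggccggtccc
Pdk4: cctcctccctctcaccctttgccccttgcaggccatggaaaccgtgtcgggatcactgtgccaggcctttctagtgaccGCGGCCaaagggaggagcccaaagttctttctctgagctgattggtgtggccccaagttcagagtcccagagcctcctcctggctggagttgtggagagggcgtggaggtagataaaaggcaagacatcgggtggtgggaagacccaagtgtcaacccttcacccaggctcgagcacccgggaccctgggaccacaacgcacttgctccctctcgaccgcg

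The hexamer, searched on both strands with overlapping matches counted, was present in either form in 26.8% of 32851 RefSeq promoters of the same length. TGCCGC was in 3813 and GGCCGC in 6568 of them. In the windows printed here TGCCGC occurred 2 times in *Calcr* and 1 time in *Pon3*, and GGCCGC 1 time each in *Calcr* and *Pdk4*. Neither form was in the *Pon2* window, in the 3 windows of *Tfpi2* or in that of *Dync1i1*. The second RefSeq window of *Calcr*, chr6:3764664-3764963, which lies at the gene start given above, held neither form and 4 CpG dinucleotides. The *Pon2* window held 31 CpG dinucleotides and the printed *Calcr* window 29, against a median of 7 over all promoters. The *Pdk4* window held 12 and the *Pon3* window 7. The half-site AAGGTCA of estrogen-related receptors, a class of nuclear receptors, was in 4.72% of all promoters and occurred 1 time in *Pon3*. The FOXO core GTAAACA, in 3.65% of all promoters, was in none of the 4 windows. These matches describe letters only, and methylation and binding were not analysed here.

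The wild-type libraries held 7663520 and 10225378 bulk counts, the *Zfp57*-/- libraries 9545119 and 10337082, and between 36.1% and 37.0% of them could be assigned to an allele. Replicates differed by more than counting noise, by 34.8 times in wild-type and 6.97 times in *Zfp57*-/- cells (mean squared deviation of the counts relative to binomial sampling). Counts of *Zfp57* itself were 392 and 249 in wild-type against 158 and 144 in *Zfp57*-/- libraries, a log2 fold change of -1.19 (edgeR adjusted p = 0.0224, and 0.0720 without *Zfp57*-/- replicate 2). In the *Zfp57*-/- libraries 0 of 82 and 0 of 76 allelic fragments of *Zfp57* were from JF1, which allows a JF1 share of up to 3.66% and 3.95%. Of 8 neuron markers 7 were lower in the *Zfp57*-/- cells, and of 8 pluripotent cell markers 7 were higher, with summed levels of 108 and 127 CPM (counts scaled to library size) in wild-type against 1385 and 1253 CPM in *Zfp57*-/- cells. *Nanog* was at 0 counts in both wild-type libraries. Of the other marker lists, 6 of 8 neural progenitor markers fell and 4 of 8 visceral endoderm markers rose, while 2 rose and 1 fell among 7 tested mesoderm markers and among 6 endothelial markers. In bulk RNA, fewer cells of a type and less RNA per cell cannot be told apart.

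The question for total RNA was whether the level of the members differed between *Zfp57*-/- and wild-type cells. *Pdk4* was the member that changed, from almost no counts in wild-type cells to the level next below that of *Pon2*, the most abundant member, in *Zfp57*-/- cells. *Pon2*, *Pon3*, *Calcr*, *Dync1i1* and *Tfpi2* did not pass the test. All 6 members were tested among 19995 genes with more than 8 counts over the 4 libraries, and 1 of 6 passed, against 27.6% of all genes tested (edgeR quasi-likelihood test, Benjamini-Hochberg adjusted p under 0.05). Over all genes tested, 2607 were higher and 2915 lower in *Zfp57*-/- cells, which is the background for every list of genes given here. *Pdk4* and *Tfpi2* passed the filter on low counts through 1 genotype alone. The normalized counts of the genotypes did not overlap for 4 of 6 members, where 66.3% of all genes showed no overlap. The median log2 fold change of the members was 0.47, beside -0.01 for all genes tested.

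**Figure D1:**
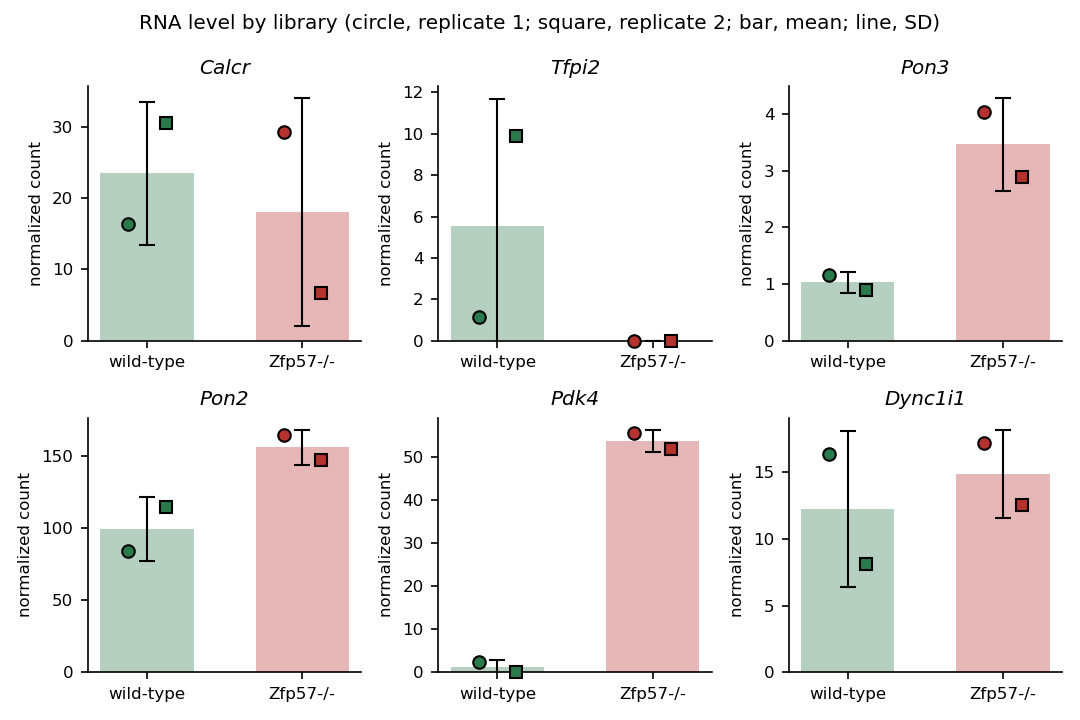
Normalized counts (counts scaled by TMM library size) of the 6 members in each library, with replicate 1 as a circle and replicate 2 as a square, the mean as a bar and the SD as a line. Each panel has its own linear axis from 0, and *Pdk4* is near 0 in wild-type and above 50 in *Zfp57*-/- cells, while the genotypes overlap for *Calcr* and *Dync1i1*.

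The counts of *Pdk4* were 2 and 0 in the wild-type libraries, against 55 and 54 in the *Zfp57*-/- ones. Both *Zfp57*-/- libraries were therefore far above both wild-type libraries and close to each other. The mean normalized count rose from 1.17 ± 1.65 to 53.8 ± 2.56 (SD, n = 2 each). The ratio of the summed counts, corrected for library size, was 52.9 with an exact 95% counting interval of 14.3 to 443, which is wide because it rests on 2 wild-type counts. The fitted log2 fold change was 5.54 (95% interval 3.61 to 7.47, edgeR adjusted p = 0.00129). With wild-type replicate 1 left out, which leaves a wild-type library at 0, the fitted log2 value was 8.81, and without wild-type replicate 2 it was 4.45. *Pdk4* passed the threshold under every alternative tried for the bulk fit. The pluripotent cell markers given above rose and the neuron markers fell between the same libraries, and their part in the change of *Pdk4* was not tested.

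*Pdk4* acts on the pyruvate dehydrogenase complex, which converts pyruvate to acetyl-CoA in mitochondria, and 13 other genes of that complex, its kinases, its phosphatases and the mitochondrial pyruvate carrier were followed beside it. Of these, 1 rose, 1 fell and 11 did not pass the test, and the median log2 fold change of the list was -0.10. *Pdhb*, a subunit of the E1 enzyme, rose from 576 and 776 to 1084 and 1083 counts (log2 fold change 0.64, edgeR adjusted p = 0.0271). *Pdp1*, a phosphatase that reactivates the complex, had 194 and 357 counts in wild-type cells against 161 and 143 in *Zfp57*-/- cells (log2 fold change -0.87, edgeR adjusted p = 0.030). Without *Zfp57*-/- replicate 1 or 2, neither passed (edgeR adjusted p of 0.311 and 0.227 for *Pdhb*, 0.131 and 0.271 for *Pdp1*). The paralogous kinases did not pass the test. *Pdk1* had a log2 fold change of -0.34 (95% interval -0.99 to 0.30), *Pdk2* of -0.27 (-1.24 to 0.71) and *Pdk3* of -0.45 (-0.92 to 0.03). The intervals of these 3 kinases lay below that of *Pdk4*, although a difference between the genes was not itself tested.

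**Figure D2:**
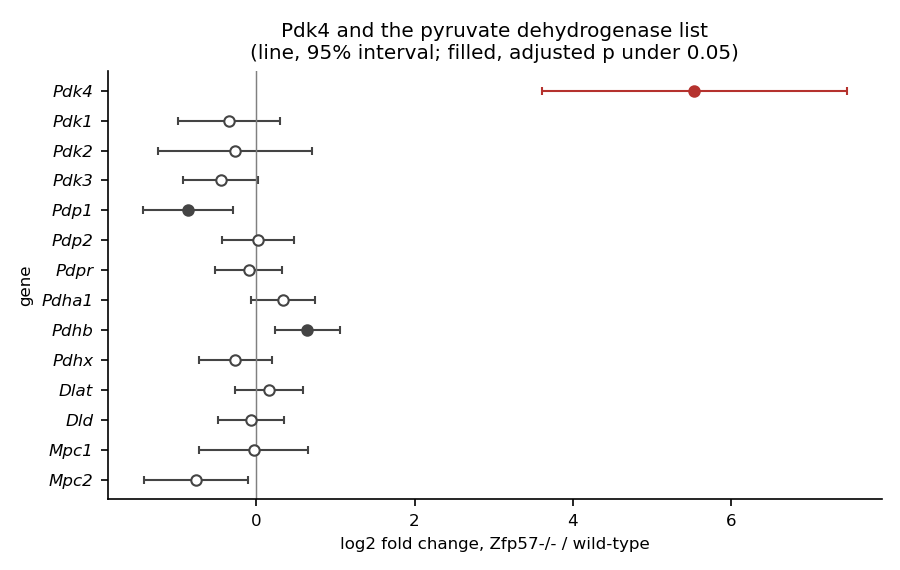
Log2 fold change of *Zfp57*-/- over wild-type cells for *Pdk4* and the 13 genes of the pyruvate dehydrogenase list, with the gene on the vertical axis and lines for 95% intervals. Filled points passed an adjusted p of 0.05, and *Pdk4* at 5.54 lies apart from the others, which are between -0.87 and 0.64.

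*Pon2* was the most abundant member in both genotypes. It had 72 and 128 counts in wild-type cells against 163 and 153 in *Zfp57*-/- cells. Both *Zfp57*-/- libraries were above both wild-type libraries, and the normalized counts were 99.5 ± 22.0 and 156 ± 12.4 (SD, n = 2 each). The log2 fold change was 0.64 (95% interval 0.02 to 1.26), with an edgeR p of 0.0431 before and 0.113 after Benjamini-Hochberg adjustment, so that the difference did not pass the threshold. The estimate, and with it the outcome of the test, depended on the wild-type library kept. The log2 value was 0.89 without wild-type replicate 2, the higher of the wild-type pair, and 0.41 without wild-type replicate 1.

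*Pon3*, the neighbour of *Pon2*, was close to the limit of detection. It had 1 and 1 counts in wild-type cells against 4 and 3 in *Zfp57*-/- cells, a counting ratio of 3.40 with an exact 95% interval of 0.647 to 33.5. The genotypes did not overlap, but the interval includes 1 and the edgeR adjusted p was 0.353. The remaining paraoxonase of the cluster, *Pon1*, had 2 and 0 counts in wild-type cells against 4 and 0 in *Zfp57*-/- cells and was not tested. Among antioxidant enzymes more widely, 10 of the 16 tested rose and the other 6 did not pass, with a median log2 fold change of 0.98. Of all 19995 genes tested, 2607 rose. *Nqo1*, a quinone reductase, went from 3 and 11 to 365 and 340 counts (log2 fold change 5.61, edgeR adjusted p = 1.01e-05). The log2 value was 5.09 without wild-type replicate 1 and 6.58 without wild-type replicate 2. *Gclc*, the catalytic subunit for the first step of glutathione synthesis, went from 413 and 623 to 1312 and 1351 counts (log2 fold change 1.33, edgeR adjusted p = 0.000778).

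*Calcr* varied more between replicates than between genotypes. It had 14 and 34 counts in wild-type cells against 29 and 7 in *Zfp57*-/- cells, and the groups overlapped. The normalized counts were 23.4 ± 10.1 in wild-type and 18.0 ± 16.0 in *Zfp57*-/- cells (SD, n = 2 each), for a log2 fold change of -0.40 (95% interval -2.01 to 1.22, edgeR adjusted p = 0.725). The sign depended on single libraries, with 0.13 without wild-type replicate 2, 0.32 without *Zfp57*-/- replicate 2 and -1.78 without *Zfp57*-/- replicate 1. Of 7 tested genes among the ligands, partners and relatives of the receptor, 3 rose and the other 4 did not pass, with a median log2 fold change of 0.50. Among the 3 is a ligand with 0 and 0 counts in wild-type against 8 and 6 in *Zfp57*-/- cells. DESeq2 called 2 genes of the list higher. *Calca*, which encodes calcitonin and the calcitonin gene-related peptide, had 1 and 3 counts in wild-type cells against 33 and 49 in *Zfp57*-/- cells (log2 fold change 4.24, edgeR adjusted p = 0.00214). The log2 value was 3.82 without wild-type replicate 1 and 4.96 without wild-type replicate 2. *Ramp2*, a membrane partner that sets the ligand preference of these receptors, went from 47 and 75 to 136 and 154 counts (log2 fold change 1.22, edgeR adjusted p = 0.0123), and did not pass without *Zfp57*-/- replicate 1 or 2 (0.106 and 0.159).

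*Tfpi2* was detected in wild-type cells, with 1 and 11 counts, and had 0 counts in both *Zfp57*-/- libraries. A library without a count allows up to 3, and wild-type replicate 1 was itself under that floor, so that no fold is given. The call depended on the filter, since the edgeR adjusted p was 0.0718 with the main filter and 0.0340 when no filter on low counts was used. It also rested on wild-type replicate 2, without which the gene was not tested. *Tfpi2* is known for expression in extraembryonic cells. The summed markers of primitive and parietal endoderm were 11081 and 17633 CPM in wild-type cells against 19634 and 28414 CPM in *Zfp57*-/- cells, with 2 of 12 markers higher, 1 lower and none at 0 counts in either genotype. The 9 trophoblast markers summed to 28 and 53.4 CPM in wild-type cells against 94.1 and 97.3 CPM in *Zfp57*-/- cells, with 4 of 8 tested markers higher, 1 lower and *Prl3d1* at 0 counts in *Zfp57*-/- cells. The 8 visceral endoderm markers summed to 213 and 118 CPM in wild-type cells against 225 and 347 CPM in *Zfp57*-/- cells. Wild-type replicate 2, which held 11 of the 12 counts of *Tfpi2*, had the higher sum within its genotype for the first 2 of these lists and the lower sum for visceral endoderm. The part of these cell types in the level of *Tfpi2* was not tested. Among other genes of the tissue factor pathway and of Kunitz inhibitors, 6 of 11 tested rose and the other 5 did not pass, with a median log2 fold change of 0.91. Among those that rose was *Spint1*, a membrane Kunitz inhibitor, with 108 and 158 against 429 and 488 counts (log2 fold change 1.75, edgeR adjusted p = 0.000285).

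*Dync1i1* had 14 and 9 counts in wild-type cells against 17 and 13 in *Zfp57*-/- cells, and the groups overlapped. The log2 fold change was 0.30 (95% interval -1.22 to 1.82, edgeR adjusted p = 0.780) and became -0.14 without wild-type replicate 2. This chain is made mainly in neurons, whose summed markers were 1511 and 1888 CPM in wild-type cells against 214 and 168 CPM in *Zfp57*-/- cells, and their part in the level of *Dync1i1* was not tested. Of 24 tested genes of dynein, dynactin and their cofactors, 2 rose, 3 fell and 19 did not pass, with a median log2 fold change of -0.28. *Dync1li2*, a light intermediate chain, had 1225 and 1721 counts in wild-type cells against 824 and 896 in *Zfp57*-/- cells (log2 fold change -0.81, edgeR adjusted p = 0.00986). *Bicd1*, a cargo adaptor, had 537 and 606 against 271 and 321 counts (log2 fold change -1.01, edgeR adjusted p = 0.00490). *Actr1b*, a dynactin subunit, rose from 667 and 1333 to 1604 and 1985 counts (log2 fold change 0.84, edgeR adjusted p = 0.0263). *Dynlt1a*, a light chain, also rose (log2 fold change 1.5, edgeR adjusted p = 0.0144), with the limit that it has near-identical copies and that only uniquely aligned reads were counted. Without *Zfp57*-/- replicate 1 or 2, none of these 4 genes passed, with edgeR adjusted p between 0.0504 (*Bicd1*) and 0.205 (*Dync1li2*).

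The levels of the members were ordered per length, as RPKM (CPM per kb of exon, with TMM library sizes). In wild-type cells *Pon2* was highest at 1.44 ± 0.318 RPKM (SD, n = 2), followed by *Calcr* at 0.636 ± 0.273, *Dync1i1* at 0.363 ± 0.173 and *Tfpi2* at 0.336 ± 0.375, and the ranges of these last 3 overlapped between neighbours. *Pdk4* at 0.0353 ± 0.0499 and *Pon3* at 0.0324 ± 0.00593 RPKM overlapped and were lowest. In *Zfp57*-/- cells *Pdk4*, at 1.63 ± 0.0773 RPKM, came next after *Pon2* at 2.26 ± 0.179, and their ranges did not overlap. *Calcr* at 0.489 ± 0.433 and *Dync1i1* at 0.441 ± 0.0982 overlapped, *Pon3* was at 0.109 ± 0.0256, and *Tfpi2* had no counts. By mean RPKM over the 4 libraries, *Pon2* was at the 40.2nd percentile of the genes tested, *Pdk4* at 27.9, *Calcr* at 21.9, *Dync1i1* at 17.1, *Tfpi2* at 6.83 and *Pon3* at 1.26, so that every member was below the median gene.

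The tested genes whose 4 log2 CPM values, each centred on its mean, lay closest to those of each member were listed, by root-mean-square difference over the 4 libraries. For *Pon2* these were *Tmem97* at 0.01 and *Tomm20* at 0.02 log2 units, and for *Pdk4* they were *Gm17067* at 0.05 and *Msc* at 0.10. *Msc*, a basic helix-loop-helix repressor, had 6 and 4 counts in wild-type cells against 90 and 107 in *Zfp57*-/- cells, and *Gm17067* had 21 and 17 against 266 and 259. The nearest genes were *Klhl10* and *Angptl8* for *Calcr*, *Ttll11* and *Krt23* for *Tfpi2*, *Naa20* and *Btbd11* for *Pon3*, and *Dyx1c1* and *Cep295nl* for *Dync1i1*, at 0.01 to 0.14 log2 units. With 4 libraries and a CPM of 0.5 added before the logarithm, these distances describe the profiles and carry no test. The added CPM shrinks the fold of a member near 0 counts, such as *Pdk4* or *Tfpi2*. A small distance therefore does not mean an equal fold.

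Allelic counts asked whether the members were expressed from 1 parental allele, as the genes of the core are. The allelic ratio is JF1/(JF1 + B6), which is 1 for maternal, 0 for paternal and 0.5 for balanced expression, and the median over 484 chromosome 6 genes with at least 10 allelic fragments in every library was 0.483 in wild-type against 0.486 in *Zfp57*-/- cells. Between 54.0% and 66.4% of the counts of *Pon2* could be assigned to an allele, and *Pon2* was the only member that reached 10 normalized allelic counts in each wild-type library. Its ratio was 0.488 and 0.576 in wild-type (43 and 85 fragments) and 0.420 and 0.50 in *Zfp57*-/- cells (88 and 88 fragments). The ranges met neither end of the scale and overlapped between genotypes. The log2 ratio of JF1 over B6 was 0.25 in wild-type (95% interval -0.38 to 0.87, edgeR adjusted p = 0.660), a test passed by 23.6% of 10977 genes. It was -0.23 in *Zfp57*-/- cells (-0.78 to 0.33, edgeR adjusted p = 0.628), a test passed by 21.8%. The genotype-by-allele difference was -0.48 (-1.31 to 0.36, edgeR adjusted p = 0.598), a test passed by 14.5%. Between genotypes the JF1 allele of *Pon2* differed by a log2 value of 0.20 (edgeR adjusted p = 0.701), a test passed by 29.3% of genes. The B6 allele differed by 0.68 (edgeR adjusted p = 0.161), a test passed by 32.6%.

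**Figure D3:**
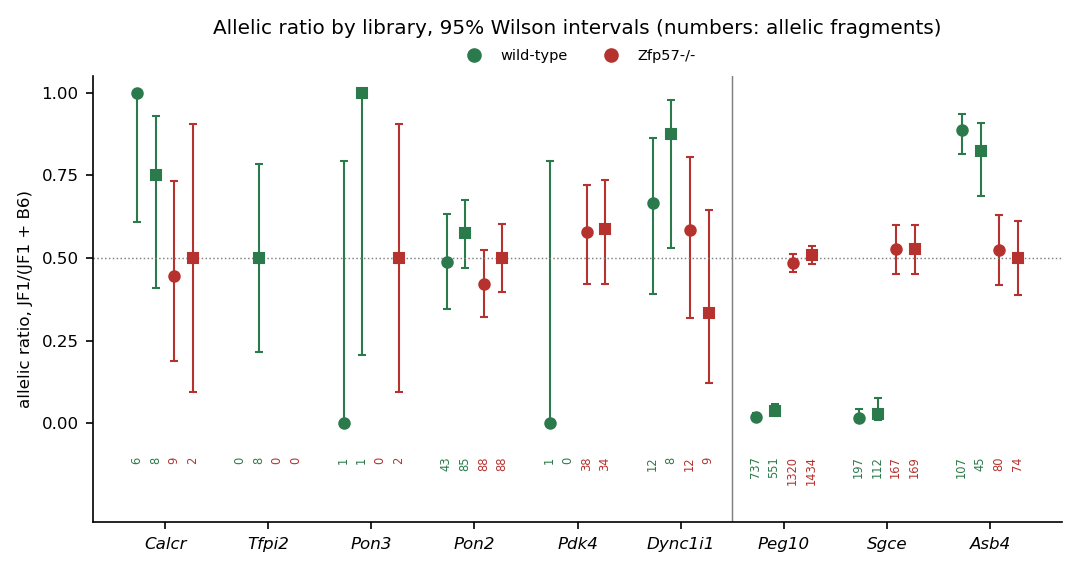
Allelic ratio of the 6 members (left of the line) and of *Peg10*, *Sgce* and *Asb4* (right) in each library, with 95% Wilson intervals and the number of allelic fragments below each point. The imprinted genes leave the balanced value of 0.5 in wild-type cells and lie at 0.486 to 0.527 in *Zfp57*-/- cells, while *Pon2* lies between 0.420 and 0.576 in all libraries and the other members have 0 to 38 fragments.

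The allelic depth of the other members was low, and their values are given with Wilson intervals that cover counting error only. *Pdk4* had 1 allelic fragment in the wild-type libraries together, so that its wild-type ratio cannot be given. In *Zfp57*-/- cells 22 of 38 and 20 of 34 fragments were from JF1, ratios of 0.579 (0.422 to 0.721) and 0.588 (0.422 to 0.736). Fragments of both parental copies were present in each library, and both intervals include 0.5. With genes kept at 10 or more allelic counts summed over the 4 libraries, 15141 genes and 4 members could be tested. *Pdk4* entered through 1 genotype alone, since 72 of its 73 allelic fragments were in *Zfp57*-/- cells, so that the tests on each allele restate the change in level. The JF1 allele went from 0 and 0 to 22 and 20 counts, at least 6.70-fold above the floor of 3 counts per library (edgeR adjusted p = 0.000815, a test passed by 22.7% of genes). The B6 allele went from 1 and 0 to 16 and 14 counts, a counting ratio of 29.1 with an exact 95% interval of 4.84 to 1189 (edgeR adjusted p = 0.00410, a test passed by 26.1% of genes).

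*Calcr* had 6 of 6 and 6 of 8 fragments from JF1 in wild-type cells, ratios of 1.00 (0.610 to 1.00) and 0.750 (0.409 to 0.929). In *Zfp57*-/- cells it had 4 of 9 and 1 of 2, ratios of 0.444 (0.189 to 0.733) and 0.50 (0.0945 to 0.905). These values rest on 14 fragments in wild-type and 11 in *Zfp57*-/- cells. Pooled over libraries, the ratio was 0.857 (0.601 to 0.960) in wild-type and 0.455 (0.213 to 0.720) in *Zfp57*-/- cells, so that by counting error alone the wild-type interval lay above 0.5. The log2 ratio in wild-type was 2.51 (95% interval -0.16 to 5.18, edgeR adjusted p = 0.237, a test passed by 17.6% of the 15141 genes). The genotype-by-allele difference was -2.74 (-6.54 to 1.07, edgeR adjusted p = 0.548, a test passed by 10.6%). The wild-type bias did not pass the test across replicates, and the interval of the genotype-by-allele difference holds 0 as well as the difference measured for *Asb4*.

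*Dync1i1* had 8 of 12 and 7 of 8 fragments from JF1 in wild-type and 7 of 12 and 3 of 9 in *Zfp57*-/- cells. The ratios were 0.667 (0.391 to 0.862) and 0.875 (0.529 to 0.978) against 0.583 (0.320 to 0.807) and 0.333 (0.121 to 0.646). Pooled over libraries, the ratio was 0.750 (0.531 to 0.888) in wild-type and 0.476 (0.283 to 0.676) in *Zfp57*-/- cells. As for *Calcr*, the wild-type interval lay above 0.5 by counting error alone, and the bias did not pass the test across replicates. The log2 ratio in wild-type was 1.59 (95% interval -0.36 to 3.53, edgeR adjusted p = 0.338). The genotype-by-allele difference was -1.76 (95% interval -4.43 to 0.92, edgeR adjusted p = 0.608). This interval too holds 0 as well as the difference measured for *Asb4*. Of the 4 members with 10 or more allelic counts, the count past the genotype-by-allele threshold was 0, and it was 0 at an unadjusted edgeR p of 0.05 also. DESeq2, run on the stricter filter that keeps *Pon2* alone, likewise gave 0. *Tfpi2* had 4 of 8 fragments from JF1, all in wild-type replicate 2, and *Pon3* had 1 of 2 in each genotype, and neither could be tested.

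The imprinted genes of the domain serve as a reference for what the same libraries can resolve. *Peg10* had ratios of 0.0190 and 0.0381 in wild-type against 0.486 and 0.509 in *Zfp57*-/- cells, and *Sgce* had 0.0152 and 0.0268 against 0.527 and 0.527. *Asb4*, which lies between *Pon2* and *Pdk4*, had 0.888 and 0.822 against 0.525 and 0.50. Its genotype-by-allele log2 difference was -2.61 (95% interval -3.54 to -1.68, edgeR adjusted p = 4.37e-06), and the interval of *Pon2*, -1.31 to 0.36, did not reach it. The flanking genes *Ppp1r9a* and *Casd1* had wild-type ratios of 0.549 and 0.496 and of 0.548 and 0.481. In total RNA *Peg10* rose (log2 fold change 0.90, edgeR adjusted p = 0.0214) and *Ppp1r9a* and *Casd1* fell (-1.22 and -0.78, edgeR adjusted p = 0.00972 and 0.0166). *Sgce* and *Asb4* did not pass (0.26 and -0.05, edgeR adjusted p = 0.562 and 0.952). Without *Zfp57*-/- replicate 1 or 2, *Peg10* (0.0899 and 0.111) and *Casd1* (0.198 and 0.193) did not pass. *Sgce* had a log2 value of 0.85 without wild-type replicate 1. *Asb4* moved in opposite directions, to 0.89 without wild-type replicate 1 and to -0.64 without wild-type replicate 2.

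**Figure D4:**
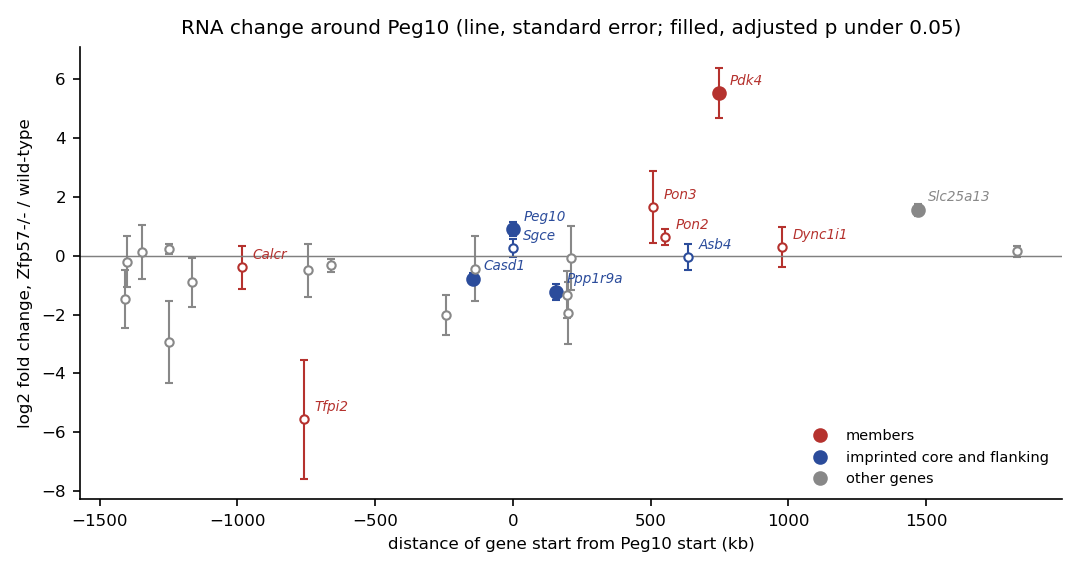
Log2 fold change of *Zfp57*-/- over wild-type cells (vertical axis, lines for standard errors) for the 26 tested genes that start within 2000 kb of the start of *Peg10*, against the distance of their start in kb. Filled points passed an adjusted p of 0.05, and *Pdk4* at 749 kb is the only filled member, with unfilled genes on both sides of it.

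Of 72 annotated genes starting within 2000 kb of *Peg10*, 26 were tested for level. Among the 20 that are not members, 2 rose (*Peg10* and *Slc25a13*), 2 fell (*Ppp1r9a* and *Casd1*) and 16 did not pass. *Slc25a13*, a mitochondrial aspartate-glutamate carrier 1470 kb distal to *Peg10*, went from 182 and 223 to 585 and 654 counts (log2 fold change 1.57, edgeR adjusted p = 0.000357). The immediate tested neighbours of *Pdk4* on either side, *Asb4* and *Dync1i1*, did not pass. For the allelic ratio, 11 genes of the window were tested and 4 passed the genotype-by-allele threshold. These were *Sgce*, *Peg10*, *Asb4* and *Sem1*. *Sem1*, which encodes a small subunit of the proteasome and lies 1831 kb distal to *Peg10*, had ratios of 0.952 and 0.993 in wild-type (336 and 605 fragments) and 0.468 and 0.494 in *Zfp57*-/- cells (526 and 540 fragments). Its level in total RNA did not pass the test (log2 fold change 0.15, edgeR adjusted p = 0.610).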

How the data were processed

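Strand-specific libraries of ribosome-depleted total RNA were analysed for 2 wild-type and 2 *Zfp57*-/- cultures. Per the labels and the study's methods, the authors trimmed the read pairs with Trimmomatic 0.36, aligned them uniquely with STAR 2.5.4a to GRCm38, and deposited raw counts per gene of the GENCODE vM20 annotation, made with featureCounts (Subread 1.6.0) from exons on the strand of the library, per the file headers. A second table of deposited counts gives fragments per gene for the JF1 and the B6 allele, split at strain polymorphisms, in 8 columns. Both tables were read as deposited.

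Genes with more than 8 counts over the 4 libraries were compared by edgeR's robust quasi-likelihood test (edgeR 4.0.16, R 4.3.3) with TMM normalization and Benjamini-Hochberg adjustment over all genes tested, at a threshold of 0.05. Autosomal genes that reached 10 normalized allelic counts in each wild-type library were fitted on the allele columns with library terms and 1 allele effect for each genotype, and a further fit compared each allele between genotypes. Alternatives were DESeq2 1.42.0, other scalings, other filters on low counts, a replicate block and each library left out in turn. Normalized counts are counts divided by TMM library size relative to its mean. Wilson intervals, exact counting intervals and floors (3 counts per library) cover counting error only. The intervals of the edgeR log2 values include the spread between replicates. The fits were run on simulated counts with the same replicate spread for all genes and both genotypes. Changes were planted only in genes with more counts than *Tfpi2*, *Pon3* or *Dync1i1* had. These runs therefore do not show how the fits perform for such genes or at the replicate spread measured here. Tables and figures were made with Python 3.11.15.

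Same-numbered libraries carry no stated pairing. The differences between replicates 1 and 2 correlated at 0.173 between genotypes over 11869 genes, and with 2 pairs the numbers were not taken as pairs. Named genes are the 6 members, *Zfp57*, the imprinted core and flanking genes, from each other list at most 2 genes per direction with the smallest adjusted p, other genes within 2000 kb of *Peg10* past a threshold, and the 2 genes most like each member. A gene that this rule names is not reported here. The paralogous kinases *Pdk1* to *Pdk3* and the genes *Prl3d1* and *Nanog* were named after their values were seen. The members and lists were chosen with earlier results of these data known. Promoters are from RefSeq (GRCm38.p6), where all 6 members were matched. Among the listed genes, 1 dynein and 1 antioxidant gene were not matched by symbol.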

Additional observations from a re-analysis of the deposited data

Results flagged for a closer look

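Allelic ratios that differed between wild-type and *Zfp57*-/- cells, by the genotype-by-allele test of edgeR, were found for 4 genes around the members. Of the members, 0 of 1 passed with the main filter, where 14.5% of all genes did, and 0 of 4 with genes kept at 10 summed allelic counts, where 10.6% did. The log2 difference of JF1/B6 between *Zfp57*-/- and wild-type cells was 5.75 for *Sgce* (adjusted p = 8.73e-21), 5.13 for *Peg10* (adjusted p = 7.25e-41), -2.61 for *Asb4* (adjusted p = 4.37e-06) and -5.60 for *Sem1* (adjusted p = 1.76e-24). For *Sem1* it was -7.29 without wild-type replicate 1 and -4.42 without wild-type replicate 2. For *Sem1* the B6 allele had a log2 change of 4.70 between genotypes (edgeR adjusted p = 1.45e-05) and the JF1 allele one of -0.86 (edgeR adjusted p = 0.0592). The nearest of these genes to a member, *Asb4*, lies between *Pon2* and *Pdk4*.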

How the results depend on the processing

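With 2 libraries per genotype and at most 55 counts in any library for every member but *Pon2*, only large changes could be resolved. *Pdk4* passed the threshold in each fit. The count of members past the threshold for RNA level was 2 without a filter on low counts, where *Tfpi2* passed (log2 value -5.55, adjusted p = 0.0340). With a library left out, the calls of members other than *Pdk4* depended on the library. *Tfpi2* was not tested under edgeR's stricter filter or without wild-type replicate 2, and DESeq2 gave no adjusted p for it or for *Pon3*. Leaving out 1 library at a time, the log2 fold change ranged from -1.78 to 0.32 for *Calcr* (0.13 without wild-type replicate 2), from -6.41 to -5.53 for *Tfpi2*, from 0.41 to 0.89 for *Pon2*, and from -0.14 to 0.84 for *Dync1i1*. It ranged from -0.18 to 0.85 for *Sgce*, from -0.64 to 0.89 for *Asb4* and from -0.029 to 0.32 for *Sem1*. The ratio of *Pon2* in wild-type ranged from a log2 value of -0.067 to 0.44, and the change of its JF1 allele from -0.14 to 0.70. With genes kept at 10 summed allelic counts, 1 member (*Pdk4*) passed for the JF1 and 1 for the B6 allele, since it is not tested under the main filter. With the replicate number as a block, *Pdk4* was at 5.56, *Asb4* moved to 0.11 and the edgeR adjusted p of *Tfpi2* was 0.0527. The pairing changed the call of no member, and with it 6984 against 5522 genes passed. It moved the primitive and parietal endoderm markers past the threshold from 3 to 11 and the mesoderm markers from 3 to 5. Without wild-type replicate 2, 9947 genes passed, and without *Zfp57*-/- replicate 1 or 2 it was 2831 or 2987. With a library left out, the lone library is assumed to vary like the other genotype. The causes of these shifts were not tested.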
